A study of Rattus norvegicus with 12 samples.

Results

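Genes of glycolysis, lactate handling and glycogen metabolism were followed in cultured rat hippocampal neurons. The neurons had been treated for 2 days with a blocker of firing or a blocker of inhibition. The set holds 35 genes chosen by name: glucose carriers, the glycolytic enzymes, lactate dehydrogenases, monocarboxylate carriers, the kinases of pyruvate dehydrogenase with one of its subunits, and glycogen enzymes. Of these, 34 had at least 1 probe under their name (42 of 41012 probes, and 34 of 35732 distinct names on the array), and Gys1, muscle glycogen synthase, had none.

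Neurons of Sprague-Dawley rats were dissociated at E18.5 and plated at high density, and no mutant allele or transgene was named for any group. At 10 to 13 days in vitro they received vehicle (CTL), tetrodotoxin (TTX, 0.5 to 1 μM) or bicuculline (BC, 20 μM) for 48 h. TTX blocks voltage-gated Na+ channels and so action potentials, and BC blocks GABA-A receptors and so inhibition. The paper recorded blocked firing with TTX and burst firing with BC on acute application. The CTL samples were labelled as 0.1% DMSO, whereas the study's text on the arrays names a water vehicle. There were 4 RNA samples per group, and each, carrying the dye Cy3, was read on its own Agilent array of rat transcripts. Neither the labels nor the methods tell whether the 4 samples were separate cultures, and the p-values therefore reflect only how these samples spread, which may be technical.

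Neurons burn glucose to pay for ion pumping and transmitter release. Glucose enters through facilitative carriers, is trapped by hexokinase, is committed by phosphofructokinase and is split and oxidized to pyruvate. Pyruvate is then either reduced to lactate and exported by proton-coupled monocarboxylate carriers, or oxidized in mitochondria by pyruvate dehydrogenase, which its kinases switch off. Glycogen in brain lies mostly in astrocytes. Several of the genes, among them Slc2a1, Hk2, Pgk1, Ldha, Pdk1 and Slc16a3, are textbook targets of the hypoxia-inducible factors.

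Levels are given as normalized log2 signal, so that a difference of 1 is a doubling, and they compare groups for the same probe only. Between 74.1 and 77.5% of probes were well above background per array. Every one of the 4 slides carried a CTL, a TTX and a BC array, and after removal of group means the arrays on slides 1 and 3 deviated together, as did those on slides 2 and 4 (r across probes 0.2 to 0.41 within and −0.39 to −0.2 between these slide sets, arrays of different groups). A gene was called at a false discovery rate (FDR, limma) under 0.05 and a change of 1.5-fold or more in either direction. The neuronal marker Rbfox3 (CTL 14.29, TTX 14.14, BC 14.29), the glutamatergic marker Slc17a7 (11.41, 11.58 and 11.11) and the astrocyte marker Gfap (11.45, 11.45 and 11.39) were not called, although other glutamatergic markers were, in opposite directions with TTX and BC. Gad1, the GABA-synthesizing enzyme of interneurons, was 12.09 in CTL, 10.53 in TTX and 12.31 in BC and was called lower in TTX (log2 difference −1.56 ± 0.07 SE, FDR 8.13e-07). Because whole cultures were measured, fewer cells of a type and less RNA per cell cannot be told apart.

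With TTX, 5 of the 34 measured genes fell and none rose: Slc16a3, Hk2, Pdk1, Slc2a1 and Pgk1. Over all distinct names, 2.7% were called lower and 1.48% higher in this comparison, and among names that were well above background throughout at least 1 group 3.5% were called lower. With BC, none of the 34 was called in either direction (limma; at an unadjusted p under 0.05, 2 were higher and 3 lower), where 2.14% of all names were called higher and 1.47% lower. Between TTX and BC, 7 of the 34 were lower in TTX and none higher, beside 6.2% and 4.67% of all names. These 7 were the same 5 genes with Ldhb and Ppp1r3c. TTX and BC were compared with the same 4 CTL arrays.

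The largest change was in Slc16a3 (MCT4), the low-affinity carrier of cells that export lactate. Its signal was 12.02, 11.86, 12.46 and 10.6 on the CTL arrays, 9.21, 9.36, 7.73 and 8.95 on the TTX arrays, and 11.61, 10.98, 11.71 and 11.13 on the BC arrays. All TTX arrays lay below all others, and CTL and BC overlapped. The log2 difference was −2.92 ± 0.43 (SE) for TTX against CTL, 7.59-fold lower with an FDR of 0.00181, and −0.38 ± 0.43 for BC against CTL (FDR 0.753). On slides 1 to 4 the TTX array differed from the CTL array by −2.66, −3.51, −2.65 and −2.87. The probe lies at chr10:110163119-110163178 in rn4, the build of the array file.

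Hk2, the inducible hexokinase that phosphorylates glucose at the mitochondrial surface, measured 6.56, 6.84, 6.53 and 5.22 in CTL, 4.76, 4.7, 3.88 and 4.31 in TTX, and 6.05, 5.62, 6.04 and 5.91 in BC. The TTX arrays again lay below every other array, with the fourth CTL array nearest to them. The difference was −1.87 ± 0.33 (3.66-fold, FDR 0.00464) with TTX and −0.38 ± 0.33 (FDR 0.628) with BC. The size for this dim probe depended on the background correction: with TTX it was −0.83 with normexp correction, −0.91 on the median signal without correction and −0.90 on the deposited values, and between TTX and BC it was −0.60 with normexp against −1.49, called in each case. Its probe spans chr4:116926495-116928002 in rn4.

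Pdk1, a kinase that inactivates pyruvate dehydrogenase, had the tightest separation. Its signals were 11.48, 11.4, 11.67 and 11.15 in CTL, 10.42, 10.32, 10.37 and 10.31 in TTX, and 11.46, 11.37, 11.34 and 11.2 in BC. The 4 TTX arrays lay close together and below all 8 others. The difference was −1.07 ± 0.10 (2.1-fold, FDR 0.000116) with TTX and −0.08 ± 0.10 (FDR 0.783) with BC. The probe lies at chr3:54302974-54303274 in rn4.

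Slc2a1 (GLUT1), the carrier of glia and of brain endothelium that neurons in culture also express, read 12.69, 12.59, 12.69 and 11.95 in CTL. In TTX it read 11.71, 11.72, 11.09 and 11.27, and in BC 12.33, 12.23, 12.59 and 12.58. No TTX array reached the lowest CTL array. The difference was −1.03 ± 0.20 (2.04-fold, FDR 0.00778) with TTX and −0.05 ± 0.20 (FDR 0.979) with BC, and the probe lies at chr5:139718779-139718838 in rn4.

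Pgk1, phosphoglycerate kinase and the first ATP-yielding step, lay nearest to the fold limit. It read 16.12, 16.27, 16.12 and 15.66 in CTL, 15.48, 15.56, 15.29 and 15.25 in TTX, and 15.95, 16.03, 16.2 and 16.2 in BC. The TTX arrays were the 4 lowest, with the fourth CTL array just above them. The difference was −0.64 ± 0.13 (1.56-fold, FDR 0.0102) with TTX and 0.05 ± 0.13 (FDR 0.937) with BC, and without CTL replicate 2 the TTX difference was −0.57 and missed the fold limit. The probe lies at chrX:94336783-94336842 in rn4.

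**Figure D1:**
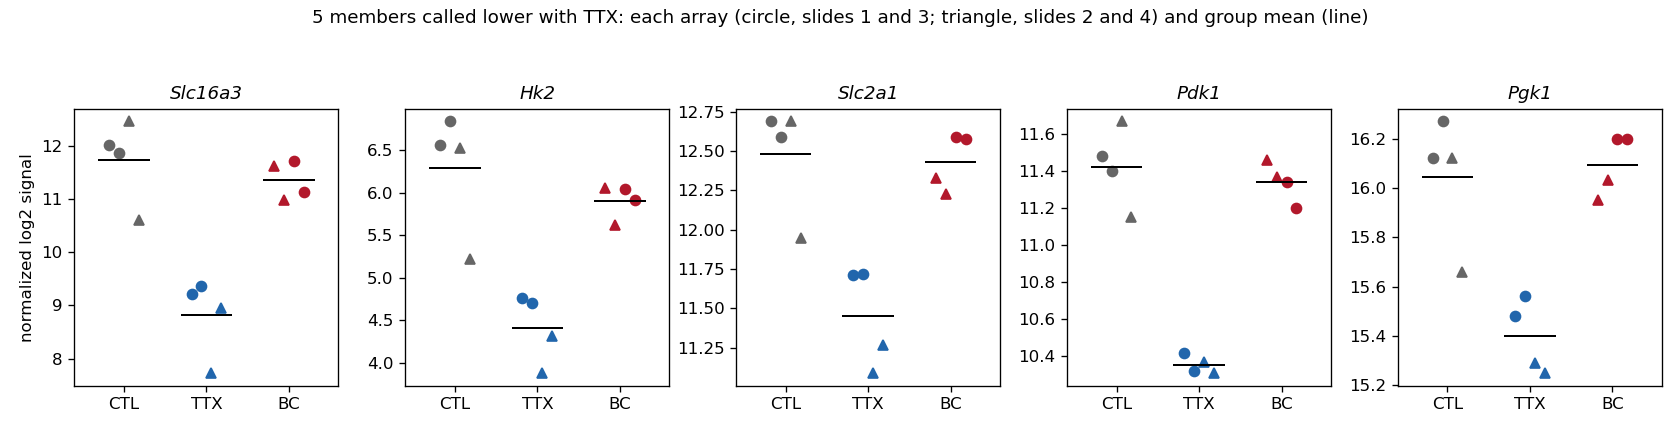
Normalized log2 signal (vertical axis, own scale per panel) of the 5 genes called lower with TTX on each of the 4 CTL (grey), TTX (blue) and BC (red) arrays. Circles are arrays of slides 1 and 3, triangles those of slides 2 and 4, and the line is the group mean. The 4 TTX arrays lie below all 8 other arrays in each panel, and the lowest CTL point is replicate 4 in each.

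CTL replicate 4 had the lowest CTL signal for 24 of the 34 genes and for 13 of the 14 that passed the FDR with TTX, where it was the lowest CTL array for 25.8% of all names. Without it, the TTX differences were −3.30 for Slc16a3, −2.23 for Hk2, −1.16 for Pdk1, −1.21 for Slc2a1 and −0.77 for Pgk1, and 7 genes were called, with Ldha (−0.65) and Ppp1r3c (−0.73) added. Within slides 2 and 4, which hold this array, none of the 34 was called in 2 arrays against 2 (limma; 17 were lower and 1 higher at an unadjusted p under 0.05), while the differences there were −3.19, −1.78, −1.07, −1.14 and −0.62 in the same order. Within slides 1 and 3 all 5 were called.

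The regions upstream of 4 of these 5 genes are shown because the genes fell together and because hypoxia-inducible factors and CREB are known to act on such sequences; Pgk1 was not matched. They are the 250 bases before each start in RefSeq (GRCr8, gene strand, 5′ to 3′), with the hypoxia response element cores ACGTG and GCGTG, on either strand, in capitals.
Slc16a3, chr10:106712078-106712327, plus strand: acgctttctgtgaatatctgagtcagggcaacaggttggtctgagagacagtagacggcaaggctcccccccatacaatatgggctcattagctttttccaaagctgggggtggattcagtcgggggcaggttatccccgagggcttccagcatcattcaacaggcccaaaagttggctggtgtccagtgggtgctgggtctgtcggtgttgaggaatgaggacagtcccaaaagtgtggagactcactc
Hk2, chr4:116841276-116841525, minus strand: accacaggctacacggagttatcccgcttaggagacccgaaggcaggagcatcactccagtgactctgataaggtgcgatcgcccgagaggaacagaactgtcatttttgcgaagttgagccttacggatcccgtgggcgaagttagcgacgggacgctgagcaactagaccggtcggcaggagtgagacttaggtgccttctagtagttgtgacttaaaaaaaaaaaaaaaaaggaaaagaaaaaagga
Pdk1, chr3:77113264-77113513, plus strand: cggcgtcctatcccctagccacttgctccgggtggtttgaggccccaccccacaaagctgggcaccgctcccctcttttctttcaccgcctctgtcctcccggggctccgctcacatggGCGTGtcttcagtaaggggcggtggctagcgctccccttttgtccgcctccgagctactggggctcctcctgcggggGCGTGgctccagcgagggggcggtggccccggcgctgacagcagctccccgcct
Slc2a1, chr5:138002272-138002521, plus strand: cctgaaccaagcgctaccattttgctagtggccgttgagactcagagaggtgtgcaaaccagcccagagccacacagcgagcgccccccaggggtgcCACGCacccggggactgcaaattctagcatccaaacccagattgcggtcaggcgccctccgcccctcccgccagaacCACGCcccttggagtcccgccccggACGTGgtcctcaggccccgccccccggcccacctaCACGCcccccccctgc
The Slc2a1 sequence held 4 cores and that of Pdk1 held 2, whereas those of Slc16a3 and Hk2 held none in this window. Of all 33469 RefSeq promoters of this length, 16.6% held ACGTG, 25.9% GCGTG and 36.7% either. Among the 32 measured genes with a promoter in the table, 22 held either core, 16 held ACGTG and 15 held GCGTG. The E-box CACGTG, which contains ACGTG, was in 5 of the 32 and in 5.59% of all promoters. The cyclic AMP response element TGACGTCA was in 1 of the 32, Ldha, and in 1.59% of all promoters. A match in these letters is a description of the sequence and not a bound site.

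Glucose entry and the first steps showed unequal responses among isoforms. Slc2a3 (GLUT3), the neuronal glucose carrier, ranged from 7.9 to 8.36 in CTL, 7.69 to 8.08 in TTX and 7.63 to 8.01 in BC, with differences of −0.23 ± 0.14 and −0.32 ± 0.14, neither past the FDR. Hk1, the constitutive hexokinase of neurons, differed by −0.05 ± 0.22 with TTX. Its BC arrays fell apart by slide set, at 16.23 and 16.15 on slides 2 and 4 against 15.26 and 15.49 on slides 1 and 3, and slides 1 and 3 were also the lower set in CTL (−0.26) and TTX (−0.46). Within slides 1 and 3 alone Hk1 was called lower in BC (log2 difference −0.63, FDR 0.0489). In CTL and TTX the dimmer Hk1 probe had the opposite order of slide sets. Its CTL arrays read 14.46 and 14.46 on slides 1 and 3, and 14.03 and 14.01 on slides 2 and 4. In BC its order was the same as on the brighter probe, at 13.59 and 13.74 against 13.93 and 13.87. On the dimmer probe every BC array lay below every CTL array, with a difference of −0.46 (FDR 0.0674). That difference was −0.80 within slides 1 and 3 and −0.12 within slides 2 and 4. On the same probe TTX differed from CTL by −0.04 (FDR 0.943) and from BC by 0.42 (FDR 0.0473, under the fold limit). Gpi, which converts glucose-6-phosphate to fructose-6-phosphate, was 16.57, 16.53, 16.31 and 16.23 in CTL and 16.12, 16.11, 15.83 and 15.9 in TTX. The groups did not overlap, and the difference of −0.42 ± 0.11 (FDR 0.0314) was repeated by its second probe at −0.45 (FDR 0.0347), both under the fold limit.

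The committing step changed little. Of the 3 phosphofructokinase subunits, the platelet type Pfkp, abundant in brain, was lower with TTX by −0.23 ± 0.06 (FDR 0.0386), under the fold limit and with no overlap of the groups. The muscle type Pfkm differed by 0.01 ± 0.09 and the liver type Pfkl by −0.12 ± 0.12. The enzymes that set the activator fructose-2,6-bisphosphate, Pfkfb2, Pfkfb3 and Pfkfb4, differed with TTX by 0.15, −0.07 and −0.11 and with BC by −0.06, −0.29 and −0.09. None passed the FDR against CTL, though every BC array of Pfkfb3 lay below every CTL array.

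On their brightest probes the 9 enzymes from aldolase to pyruvate kinase had TTX differences all below 0, from −0.64 to −0.21 with a median of −0.30, against a median of 0.01 over all names. Only Pgk1 was called, and 6 passed the FDR whatever the fold. Tpi1, triose phosphate isomerase, read 15.27, 15.09, 15.1 and 14.91 in CTL and 14.64, 14.63, 14.49 and 14.54 in TTX, a difference of −0.51 ± 0.11 (FDR 0.0124). Eno2, the neuronal enolase, read 16.83, 16.81, 16.78 and 16.67 against 16.41, 16.35, 16.33 and 16.39, a difference of −0.40 ± 0.05 (FDR 0.00089). Both pairs of groups were fully apart, with shifts smaller than that of Pgk1.

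Pkm2, the pyruvate kinase, differed by −0.43 ± 0.09 (FDR 0.00984), Pgam1, phosphoglycerate mutase, by −0.30 ± 0.06 (FDR 0.013), and Gapdh, the dehydrogenase of the pathway, by −0.26 ± 0.07 (FDR 0.037). Gapdh was also the reference gene of the study's quantitative PCR, and the paper reports its mRNA as not affected by TTX or BC. It read 17.3, 17.32, 17.44 and 17.19 in CTL, 17.03, 17.1, 17 and 17.06 in TTX, and 17.33, 17.26, 17.3 and 17.48 in BC, so that TTX was apart and BC was not. Its second probe differed by −0.23 with an FDR of 0.317. Aldoa (−0.27 ± 0.10), Aldoc (−0.22 ± 0.15) and Eno1 (−0.21 ± 0.07) did not pass the FDR. The dimmer Eno1 probe differed by −0.02 (FDR 0.987) with overlapping groups, and the dimmer Pgam1 probe by −0.42 (FDR 0.0752). Gapdh, Pgam1 and other enzymes of this group have near-identical processed copies in the genome, which a 60-base probe may also detect, and both Pgam1 probes map in rn4 to chromosomes other than that of the RefSeq gene.

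**Figure D2:**
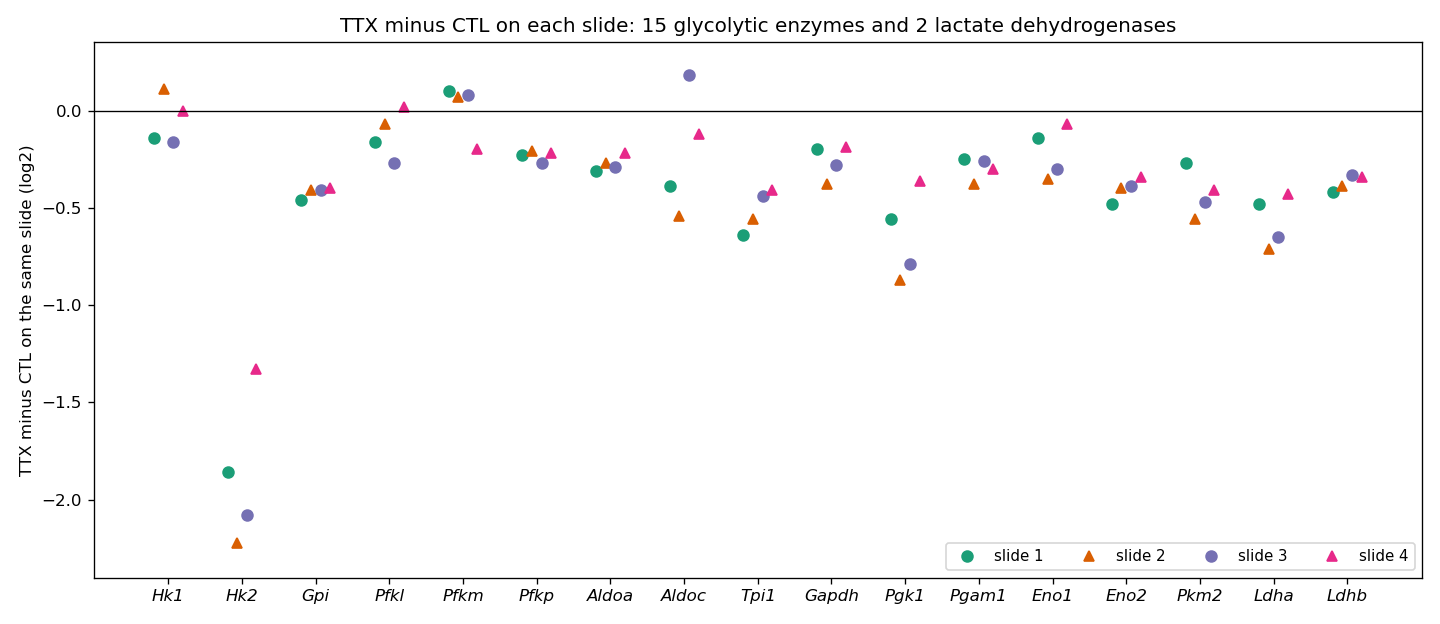
TTX minus CTL difference in normalized log2 signal on each of the 4 slides (circles, slides 1 and 3; triangles, slides 2 and 4) for the brightest probes of all 15 glycolytic enzymes of the set and 2 lactate dehydrogenases. Points lie below 0 except for Hk1 on slides 2 (0.11) and 4 (0.00), Pfkl on slide 4 (0.02), Pfkm on slides 1 to 3 (0.10, 0.07 and 0.08) and Aldoc on slide 3 (0.18), and the lowest is Hk2 on slide 2 (−2.22).

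The lactate dehydrogenases moved with the enzymes above. Ldha, the subunit that favours lactate formation, read 15.85, 15.96, 15.95 and 15.6 in CTL, 15.3, 15.37, 15.17 and 15.24 in TTX, and 15.73, 15.74, 15.82 and 15.95 in BC. The TTX arrays were below all others, and the difference of −0.57 ± 0.09 (1.48-fold, FDR 0.00284) stopped just short of the fold limit. Ldhb, the heart-type subunit that favours pyruvate, read 16.98, 16.93, 16.79 and 16.84 in CTL, 16.6, 16.55, 16.5 and 16.4 in TTX, and 16.97, 17.13, 17.2 and 17.26 in BC. It was lowest in TTX and highest in BC, with BC overlapping CTL. Its differences were −0.37 ± 0.08 (FDR 0.0116) with TTX, 0.26 ± 0.08 (FDR 0.0705) with BC and −0.63 ± 0.08 (1.55-fold, FDR 0.00016) between TTX and BC.

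The other monocarboxylate carriers did not follow Slc16a3. Slc16a1 (MCT1), the widely expressed carrier, ranged from 10.77 to 10.94 in CTL, 10.72 to 10.81 in TTX and 10.78 to 10.93 in BC. Slc16a7 (MCT2), the high-affinity carrier of neurons, ranged from 8.9 to 9.05, 9.05 to 9.24 and 8.88 to 9.47. Their differences with TTX were −0.10 ± 0.06 and 0.21 ± 0.11, neither past the FDR, and the same held with BC (−0.02 and 0.24).

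Of the pyruvate dehydrogenase kinases only Pdk1 was called against CTL. Pdk2 differed by −0.09 ± 0.15 with TTX and 0.30 ± 0.15 with BC. Pdk3 differed by −0.32 ± 0.12 (FDR 0.124) and 0.23 ± 0.12 (FDR 0.325) on its brighter probe, while its dimmer probe passed the FDR in both comparisons at −0.28 (FDR 0.0314) and 0.29 (FDR 0.0295), under the fold limit. Between TTX and BC, Pdk3 differed by −0.55 ± 0.12 (FDR 0.00542). Pdk4, the starvation-induced kinase, was the one gene of the 34 that no array measured well above background. Pdha1, the catalytic subunit that these kinases phosphorylate, differed by −0.20 ± 0.21 and 0.02 ± 0.21, while slides 1 and 3 differed from slides 2 and 4 by −0.55 in CTL, −0.55 in TTX and −0.54 in BC.

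Among the glycogen genes none was called against CTL. Ppp1r3c, the scaffold that brings protein phosphatase to glycogen, read 8.12, 8.12, 8.19 and 7.62 in CTL, 7.72, 7.79, 7.15 and 6.97 in TTX, and 8.11, 8.12, 8.36 and 8.27 in BC. TTX overlapped CTL but lay below BC on all arrays. The differences were −0.60 ± 0.19 (FDR 0.0821) against CTL and −0.81 ± 0.19 (1.75-fold, FDR 0.0112) against BC. With slide as a block the first also passed (FDR 0.0304). The dimmer Ppp1r3c probe differed by −0.27 (FDR 0.322) against CTL and by −0.34 (FDR 0.128) against BC. It was called in neither comparison, though its TTX arrays also lay below every BC array.

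The brain phosphorylase Pygb and the muscle phosphorylase Pygm, which release glucose units from glycogen, went the other way between the treatments. Pygb differed by 0.01 ± 0.10 with TTX and −0.31 ± 0.10 (FDR 0.083) with BC, where the difference was −0.53 within slides 1 and 3 and −0.09 within slides 2 and 4, and was higher in TTX than in BC by 0.32 ± 0.10 (FDR 0.0338). Pygm was higher in TTX than in BC by 0.40 ± 0.13 (FDR 0.0478), both under the fold limit. Gbe1, the branching enzyme, differed by −0.36 ± 0.15 and −0.19 ± 0.15 and did not pass the FDR. A probe outside the naming rule, described in the array file as similar to muscle glycogen synthase and chosen after its values were seen, read 9.64, 9.72, 9.43 and 8.87 in CTL, 8.6, 8.76, 8.14 and 8.25 in TTX and 9.15, 9.02, 9.49 and 9.41 in BC. It was lower with TTX by −0.97 ± 0.20 (FDR 0.012) and is not counted among the 34.

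**Figure D3:**
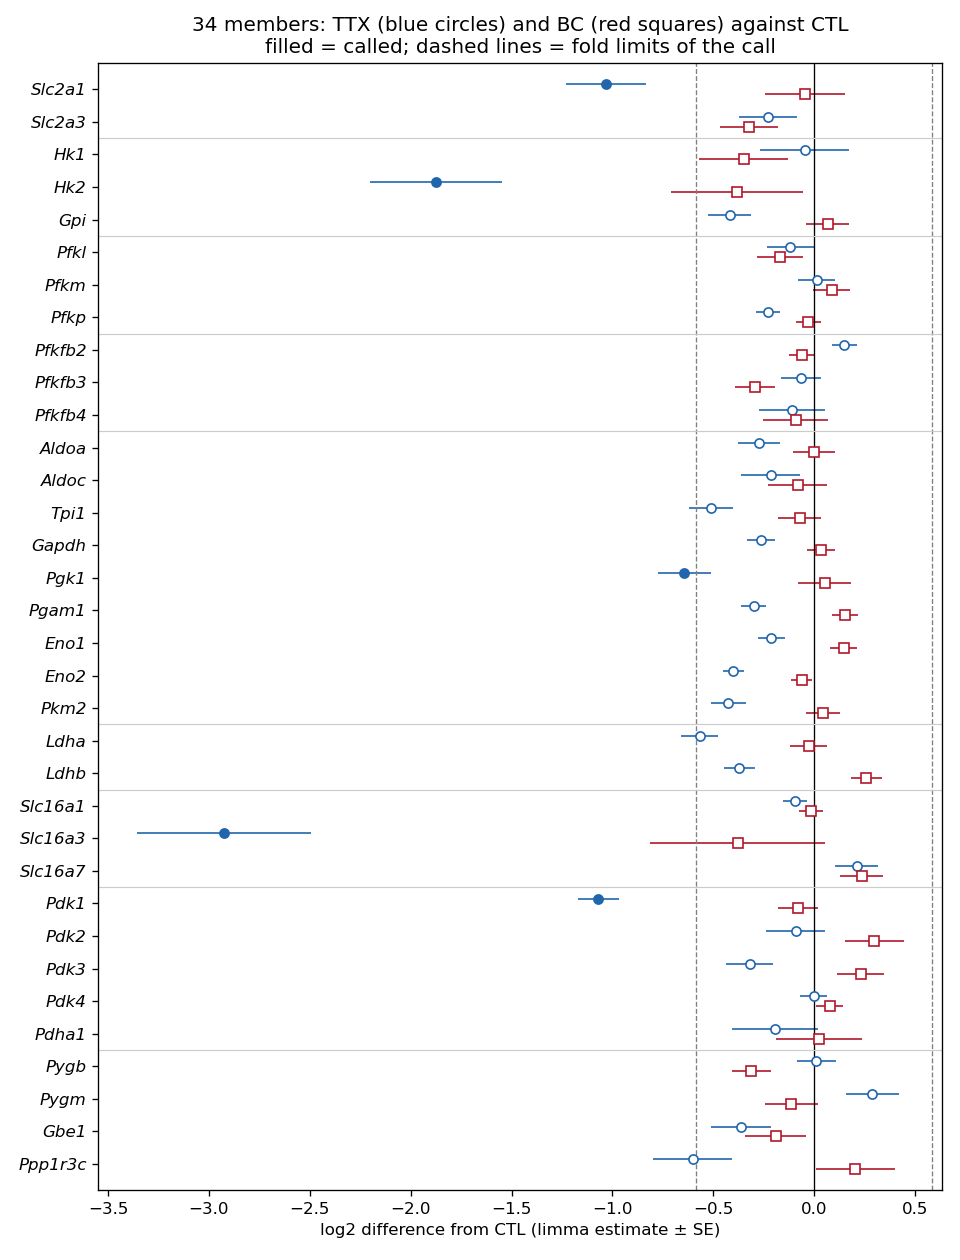
Log2 difference from CTL with its SE (horizontal axis, limma) of the 34 measured genes, grouped by role, for TTX (blue circles) and BC (red squares). Filled symbols are called and dashed lines mark the fold limits. The 5 filled TTX symbols run from −2.92 (Slc16a3) to −0.64 (Pgk1), and no BC symbol is filled.

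Counted without the fold limit, 14 of the 34 passed the FDR as lower with TTX and none as higher. Of all 35729 names tested, 1929 (5.4%) passed as lower and 1544 as higher. Between TTX and BC 17 passed as lower and 3 as higher (Pfkfb2, whose dimmer probe did not pass, Pygb and Pygm). Here 4309 (12.1%) of the 35729 names passed as lower and 4044 as higher. For 15 of the 34 every TTX array lay below every CTL array (8.08% of all names), for 18 every TTX array lay below every BC array (13.3%), and for 2 every BC array lay below every CTL array (6.06%). On each of the 4 slides the TTX array was below its CTL array for 24 of the 34 (17.6% of all names). The median difference over the 34 was −0.25 with TTX and −0.03 with BC, against 0.01 and −0.01 over all names.

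Other genes of the same pathways were measured too, and their counts can be set beside the 2.7% of all names lower with TTX and the 2.14% higher with BC. Of 30 measured further genes of glycolysis, glucose entry and gluconeogenesis, 2 fell with TTX and 2 rose with BC. Eno3, the muscle enolase, fell by 0.82 on the log2 scale with TTX (FDR 0.0122). Fbp2, the muscle fructose-bisphosphatase of gluconeogenesis, fell with TTX (−0.67, FDR 0.00633) and rose with BC (1.28, FDR 0.000155), and Fbp1, the liver form, rose with BC (1.19, FDR 0.00146). Of 18 further glycogen genes, the liver phosphorylase Pygl (−1.34, FDR 0.000937) and the phosphatase scaffold Ppp1r3b (−1.26, FDR 0.00269) fell with TTX. Gys2, the liver glycogen synthase (1.03, FDR 6.47e-05), and Pgm1, phosphoglucomutase (0.62, FDR 0.00323), rose with BC.

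Of 14 further lactate and monocarboxylate genes, TTX lowered 1, and BC raised 1 and lowered another. Ldhc, the testis lactate dehydrogenase, was lower with TTX (6.04 in CTL, 4.29 in TTX, FDR 0.00725, well above background on 2 of 4 TTX arrays) and higher with BC (7.41, FDR 0.0265). Slc16a11, a carrier of the same family, fell with BC (from 13.23 in CTL to 11.49, FDR 7.73e-06). None of 9 further pyruvate dehydrogenase and pyruvate carrier genes, 11 pentose phosphate genes or 21 genes of the tricarboxylic acid cycle and the malate-aspartate shuttle was called against CTL (limma). At an unadjusted p under 0.05 with TTX, these 3 lists had 0 higher and 3 lower, 2 higher and 0 lower, and 1 higher and 1 lower, and with BC 1 higher and 0 lower, 2 higher and 1 lower, and 1 higher and 3 lower. Their medians with TTX were −0.10, 0.04 and −0.07.

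Hypoxia-inducible genes outside glycolysis were measured beside them. Of 25, 8 fell and 1 rose with TTX (median −0.41), and 2 fell and none rose with BC (median 0.01). Adm, the vasodilator peptide adrenomedullin, fell from 12.06 ± 0.43 (SD, n = 4) to 10.54 ± 0.70 with TTX (FDR 0.0132), and Ankrd37 from 11.46 ± 0.32 to 10.2 ± 0.32 (FDR 0.00166). P4ha2, a collagen prolyl hydroxylase, fell from 13.62 ± 0.24 to 12.38 ± 0.02 (FDR 0.000112). In each of these the 4 TTX arrays lay below the 4 CTL arrays, and BC did not differ past the FDR. Hmox1, heme oxygenase, rose by 0.87 ± 0.16 (FDR 0.00722). With BC, Ndrg1 (−1.25, FDR 5.36e-05) and Car12, a carbonic anhydrase (−1.04, FDR 0.0138), fell. The mRNA of Hif1a, the oxygen-regulated subunit, chosen after its values were seen, did not differ past the FDR with TTX (−0.02) or BC (0.19). Between TTX and BC it differed by −0.21 (FDR 0.0388), under the fold limit. The arrays do not measure the Hif1a protein.

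**Figure D4:**
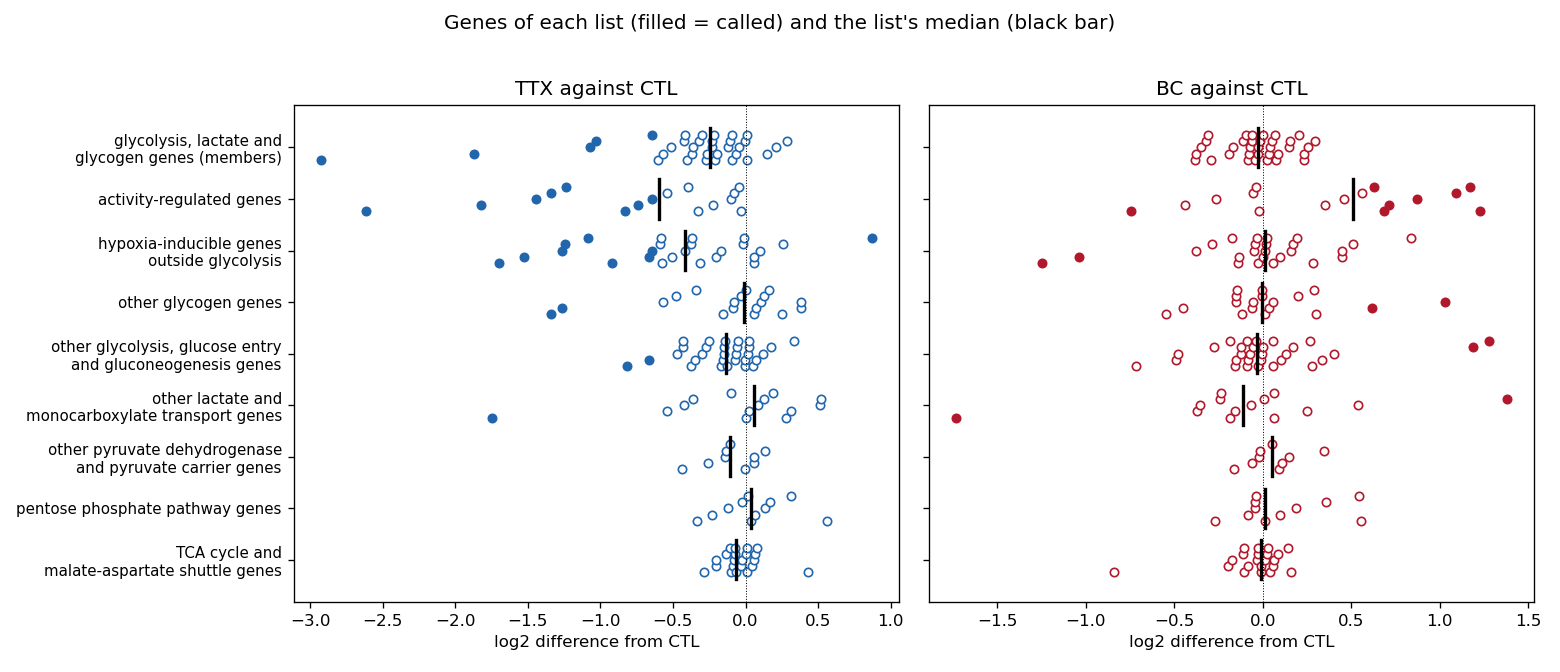
Log2 difference from CTL of every measured gene of 9 lists with TTX (left) and BC (right); filled points are called and the black bar is the list's median. The median with TTX is −0.25 for the glycolysis, lactate and glycogen genes, −0.59 for activity-regulated genes and −0.41 for hypoxia-inducible genes, and lies between −0.13 and 0.06 for the other 6 lists.

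The treatments can be read from 16 activity-regulated genes, of which 8 fell and none rose with TTX (median −0.59), and 7 rose and 1 fell with BC (median 0.51). Vgf, a secreted granin, fell with TTX (−2.61, FDR 9.05e-07), as did Pcsk1, a prohormone convertase (−1.82, FDR 6.78e-05), Bdnf, the neurotrophin (−1.45, FDR 0.000102), and Nr4a1, an immediate early nuclear receptor (−1.34, FDR 0.000582). Bdnf (1.09, FDR 0.0006), Npas4, an immediate early transcription factor (1.23, FDR 0.00336), and Nr4a2 (1.17, FDR 0.000276) rose with BC, while Egr3, an immediate early zinc finger factor, fell (−0.75, FDR 0.00102).

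Markers of other cells were set beside these results. None of 10 astrocyte markers was called with TTX (limma; 1 higher and 0 lower at an unadjusted p under 0.05), and their summed signal was 16.11 to 16.47 in CTL, 16.24 to 16.78 in TTX and 16.12 to 16.39 in BC. Of 13 interneuron markers 8 fell and 1, Calb2, rose with TTX. With BC, Npy (0.80) and Vip (1.09) rose, Calb2 (−0.80) fell, and the median was 0.09. Their summed signal was 17.06 to 17.16 in TTX and 18.67 to 18.86 in BC, with a lowest CTL array of 18.27. The brightest of these markers in CTL were Sst (17.26, BC difference 0.06) and Npy (16.81). Of 12 endothelial, mural and fibroblast markers 3 fell with TTX (Dcn, Lum and Rgs5) and 3 rose with BC (Cldn5, Dcn and Lum). Their summed signals were 13.03 to 13.29 in CTL, 12.49 to 12.61 in TTX and 13.92 to 14.38 in BC. The brightest in CTL were Lum (12.35) and Dcn (11.44), while Cdh5, Flt1 and Pdgfrb were not called with TTX or BC. The endothelial marker Pecam1 was nowhere well above background. Of 8 microglial markers none was called with TTX (0 higher and 1 lower at an unadjusted p under 0.05), and Aif1 and Itgam were nowhere well above background. Of 10 oligodendrocyte lineage markers 1 rose and 1 (Pdgfra) fell with TTX. Of 7 glutamatergic markers 2 rose with TTX (Neurod2, 0.75, and Slc17a6, 0.59) and 2 fell with BC (Neurod2, −0.72, and Prox1, −0.72). Of 8 general neuronal markers none was called with TTX (limma; 0 higher and 4 lower at an unadjusted p under 0.05). Their median difference with TTX was −0.17, with 6 of the 8 below 0. The summed glutamatergic signal was 15.09 to 15.42 in CTL, 15.68 to 15.85 in TTX and 14.62 to 14.9 in BC, with no overlap of the groups. With TTX the interneuron sum and the endothelial, mural and fibroblast sum were thus lower, and the glutamatergic sum higher, beside the lower glycolytic genes. With BC the interneuron sum and the endothelial, mural and fibroblast sum were higher, and the glutamatergic sum lower. The part of these shifts in the results was not tested.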

How the data were processed

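Cultures treated with TTX, BC or vehicle for 48 h were measured on 12 one-color Agilent arrays with 41012 non-control probes, 4 per group, grouped by the sample labels. The authors deposited scanner intensities; Feature Extraction 9.5.1.1 had subtracted background within each array, with no step between arrays. Quantile-normalized log2 values, also deposited, served as an alternative. The array file gives probe positions in rn4.

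Processed signals were taken to log2, outlier spots were left out, and the arrays were quantile-normalized. Group means were fitted with limma 3.58.1 (R 4.3.3) and moderated with eBayes, and p-values were adjusted over all probes by Benjamini and Hochberg's method. Genes were matched by the name in the array file and represented by the brightest probe. No filter on dim probes was applied. The fit and the calls, but not the earlier steps, were tested on simulated arrays with known changes. These were drawn without differences between slides. The number of arrays limits the precision.

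The 35 genes, the pathway lists and the marker lists were chosen with earlier results of these data known. All 35 are named; of each pathway list up to 4 called genes with the largest change per comparison are named, with Gfap, Rbfox3, Slc17a7 and Gad1, and genes outside this rule were chosen after their values were seen. Some genes of the lists are not reported here by name.

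Replicate numbers were checked as a pairing. After removal of group means, same-numbered TTX and CTL arrays, which lay on the same slide set, correlated at 0.28 to 0.38 over probes. Same-numbered BC and CTL arrays correlated at −0.35 to −0.24, and TTX and BC arrays at −0.38 to −0.28. Arrays of different groups on one slide set correlated at 0.2 to 0.41 whatever their number. The numbers thus showed no pairing beyond the slide set.

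Alternatives were normexp background correction (offset 50), median signal without background correction, scaling to the 75th percentile, the deposited log2 values, a filter on dim probes, blocks for slide, slide set and replicate, fits within a slide set or over the groups compared, trend and robust moderation, the methods' t-test, no fold limit, averaging the probes of a gene, and dropping each array in turn.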

Additional observations from a re-analysis of the deposited data

Results flagged for a closer look

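Among 102 groups of 4 arrays (34 genes in 3 groups), 4 held an array far from the other 3; chance would mark about 1 group in 20. All 4 were in CTL. CTL replicate 4 was low for Slc2a1 (11.95, others 12.59 to 12.69), for Pgam1 (17.81, others 17.96 to 17.97) and for Ppp1r3c (7.62, others 8.12 to 8.19). CTL replicate 2 was high for Slc16a7 (9.05, others 8.9 to 8.92).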

How the results depend on the processing

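With the exceptions that follow, the 31 alternatives left the number of called genes among the 34 within 1.5 times the reported 5 for TTX against CTL, 0 for BC against CTL and 7 for TTX against BC. For TTX against CTL it was 2 with the arrays of a slide set averaged and 2 by the methods' t-test after Benjamini-Hochberg adjustment (6 unadjusted), where Slc16a3 and Pdk1 kept their calls, 0 within slides 2 and 4, and 14 with no fold limit. For BC against CTL it was 1 within slides 1 and 3 (Hk1), and for TTX against BC it was 4 within slides 2 and 4 and 20 with no fold limit. Leaving out each array in turn gave 4 to 7, 0 to 0 and 7 to 8. The replicate block gave 5, 0 and 7, and changed no call against CTL; with only the groups compared it gave 5, 0 and 5, where Slc2a1 (FDR 0.0638) and Ppp1r3c (FDR 0.109) lost their call between TTX and BC. Beyond the slide set the numbers paired no arrays, and 2 of 12 arrays correlated best with an array of their own number. No gene that passed the FDR in the reported fit or an alternative changed direction in that comparison under any of them. With slide as a block Ppp1r3c was also called in TTX against CTL. Ldha was called in TTX against CTL without CTL replicate 4 (−0.65) or without TTX replicate 2 (−0.60), and Pgk1 was not called without CTL replicate 2 (−0.57). Over all names, 966 were lower with TTX; this number was 546 with normexp, 585 with the median signal, 581 with the deposited values and 326 with the arrays of a slide set averaged, and its range over the alternatives was 262 to 1929. The number higher with BC, reported as 763, ranged from 0 to 1646, and that lower in TTX than in BC, reported as 2215, from 1292 to 4309. The cause was not tested. Among the 34, signal near background limits Pdk4.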
